A study of Mus musculus with 6 samples.

Results

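The genes described here are the ligands and receptors of the tumour necrosis factor (TNF) superfamily whose array symbol is Tnfsf or Tnfrsf followed by a number and any further letters. They were 27 of the 18193 genes that the array annotation named on their own, namely 19 receptors, 7 ligands and Tnfsf13os, an opposite-strand RNA of the Tnfsf13 locus that carries a matching symbol and encodes no ligand. Each gene was read by 1 probe set, the brightest over all 6 arrays among those that named it alone. Tnfsf12 and Tnfsf13 appeared only on probe sets that name several genes and are described apart. The cells were DN2 thymocytes, early T-cell progenitors without CD4 or CD8, sorted from the fetal thymus of FVB mice. Of the 6 Affymetrix arrays, 3 held wild-type and 3 held E2A-deficient cells. E2A denotes the E proteins encoded by Tcf3, and the labels name neither the allele nor the age of the fetuses nor how many thymi were used. Whether replicates came from separate animals is not stated either, so p-values cover no more than the spread among these arrays.

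TNF superfamily ligands are mostly trimeric membrane proteins, many of which can be shed, and their receptors carry cysteine-rich repeats outside the cell. Receptors with a death domain can start apoptosis or necroptosis, and many receptors, with or without one, activate NF-kappaB through TRAF adaptors. In the thymus the family is known from both sides of the contact between thymocytes and stroma. RANK ligand and lymphotoxin made by lymphoid cells drive the growth of medullary epithelium, and 4-1BB, OX40 and GITR act as costimulators on T cells and innate lymphoid cells.

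Array medians lay between 77.4 and 79.0 and upper quartiles between 131 and 136, on the linear intensity scale of the deposited values. Tcf3 was lower in the E2A-deficient cells, with 236, 229 and 281 against 477, 421 and 414. The beta-actin controls, whose signal at the 5' end over that at the 3' end reflects RNA length, gave a ratio of 0.104, 0.162 and 0.0981 on the wild-type arrays and 0.165, 0.160 and 0.149 on the E2A-deficient arrays, so it moved in part with genotype. Xist, which marks female cells, read 3055, 4456 and 58.7 in wild type and 1901, 1247 and 2154 in E2A-deficient cells, so the share of female cells differed between wild-type arrays.

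In E2A-deficient cells 3 members rose, the ligands Tnfsf14 and Tnfsf10 and the receptor Tnfrsf9, each by a factor of 1.42 to 1.58. None of the 27 members fell (limma, adjusted p under 0.05), beside 1.06% of all genes that fell, although 3 of those with lower values had an unadjusted p under 0.05. The 3 called members were 11.1% of the 27, beside 3.46% of all 18193 genes called in either direction and 2.40% called higher. The arrays of the 2 groups did not overlap in 9 members, 33.3%, beside 19.9% of all genes. Of these 9, 6 were higher in E2A-deficient cells and 3 lower, beside 13.2% and 6.74% of all genes. An unadjusted p under 0.05 was reached by 8 members, 29.6%, beside 15.7% of all genes. The median log2 change over the members was 0.018, beside 0.015 over all genes, and the median absolute change was 0.060 beside 0.069. The typical member thus differed as little as the typical gene, and 5 members lay above 0.50.

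**Figure D1:**
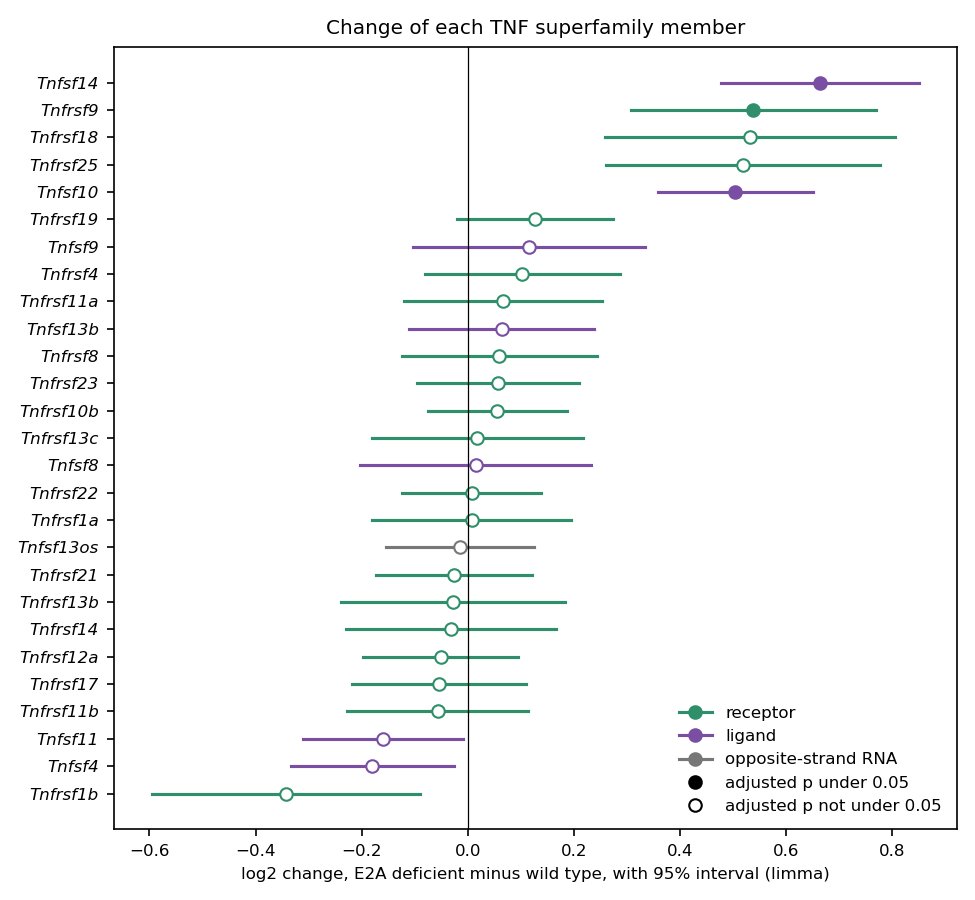
Log2 change (E2A deficient minus wild type) of each of the 27 members, with the 95% interval of the limma fit. Filled points passed at an adjusted p under 0.05. The 5 points above 0.50 include the 3 that passed, and the lowest is Tnfrsf1b at -0.34.

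Tnfsf14 encodes LIGHT, a ligand of the receptors encoded by Tnfrsf14 and Ltbr. Its intensity was 76.5, 85.7 and 73.1 in wild-type cells and 119, 133 and 122 in E2A-deficient cells. Every E2A-deficient array lay above every wild-type array. The log2 change was 0.66 (SE 0.0796, n = 3 per group, limma adjusted p = 0.00570). A second probe set of the gene was dim, with 70.7, 64.5 and 61.4 against 68.0, 69.5 and 69.4, and gave 0.08 (limma adjusted p = 0.775 in the fit per probe set). With the mean of both probe sets the change of Tnfsf14 was 0.37 (limma adjusted p = 0.0143).

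Tnfsf10 encodes TRAIL, which triggers apoptosis through death-domain receptors. It read 158, 150 and 143 in wild-type cells and 208, 221 and 213 in E2A-deficient cells, with no overlap. The rise on the log2 scale was 0.50 (SE 0.0626, limma adjusted p = 0.00684). All 3 probe sets of Tnfsf10 pointed the same way. The next gave 94.7, 109 and 109 against 144, 137 and 127 (log2 change 0.38, limma adjusted p = 0.0803), and the last gave 86.6, 119 and 93.3 against 122, 133 and 158 (0.47, limma adjusted p = 0.183). In each of the 3 the groups were separate, although only the brightest passed in the fit per probe set.

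Tnfrsf9 encodes 4-1BB, a costimulatory receptor that appears on activated T cells. Wild-type arrays gave 93.2, 96.6 and 92.0, and E2A-deficient arrays gave 117, 144 and 152. The groups were separate, and the E2A-deficient arrays spread more widely (SD 18.1 against 2.35). The log2 change was 0.54 (SE 0.0985, n = 3 per group, limma adjusted p = 0.0303). This call was the weakest of the 3. It was lost when wild-type replicate 1, 2 or 3 was left out (limma adjusted p = 0.0760, 0.0801 and 0.0910), and when E2A-deficient replicate 2 (0.101) or 3 (0.0945) was. Over all alternatives the adjusted p of Tnfrsf9 ran from 0.00702 to 0.262. The other 2 probe sets of Tnfrsf9 lay between 54.5 and 70.5 on every array and gave -0.12, with separate groups, and 0.10. With the mean of the 3 the change was 0.17 (limma adjusted p = 0.188). Of the 46 probe sets of the 27 members, 3 passed in the fit per probe set, 6.52% beside 1.79% of all 45037 probe sets. Groups were separate in 12 of the 46, 26.1% beside 16.9%.

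The beta-actin ratio, whose values are given above, bears on all 3. With it as a covariate the log2 change of Tnfsf14 was 0.55, against 0.66 without it. Those of Tnfsf10 (0.50) and Tnfrsf9 (0.53) were close to their values without it. None of Tnfsf14, Tnfsf10 and Tnfrsf9 passed (limma adjusted p = 0.0806, 0.105 and 0.262 in that order). The same covariate reduced the calls over all genes from 630 to 123. With Xist as a covariate Tnfsf14 (limma adjusted p = 0.0123) and Tnfsf10 (0.0143) passed and Tnfrsf9 (0.0579) did not.

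**Figure D2:**
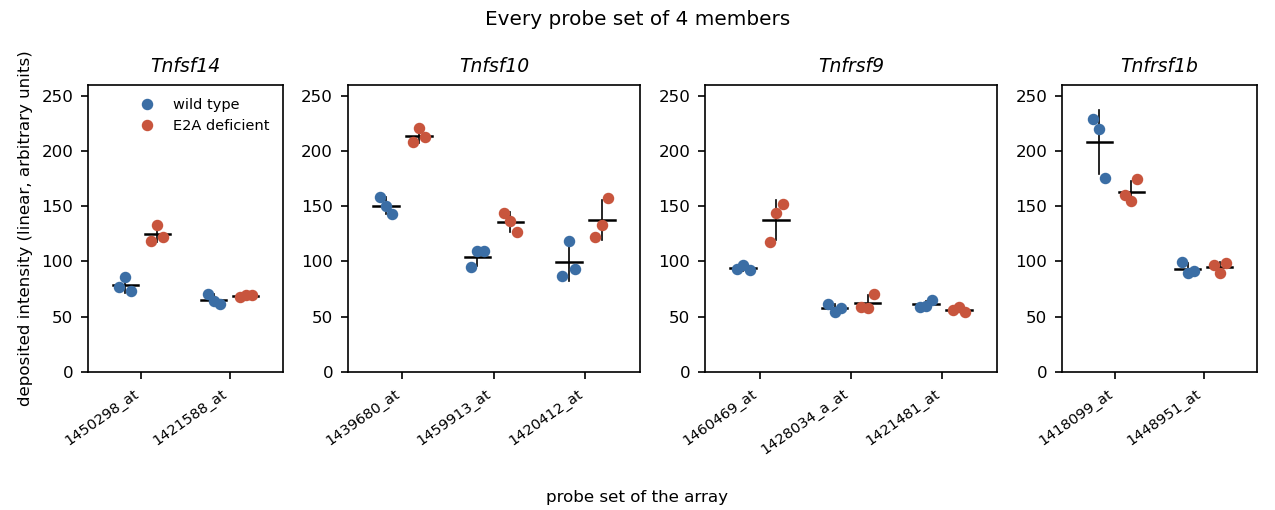
Deposited intensity on each array for every probe set of Tnfsf14, Tnfsf10, Tnfrsf9 and Tnfrsf1b, with the mean as a bar and the SD as a line (n = 3 per group); levels of different probe sets are not comparable. In Tnfsf10 all 3 probe sets are higher in E2A-deficient cells, while in the other 3 genes the dimmer probe sets do not share the direction and size of the brightest.

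The sequence around the annotated start of the 3 called members is shown because E2A binds DNA at E-boxes, and the letters of such sites can be read there. RefSeq windows on GRCm38.p6, each from 250 bases before to 50 bases after a start, were found for 21 of the 27 members. The motifs searched were CAGCTG, which is its own reverse complement, and CAGGTG with its reverse complement CACCTG, none of which overlap another in the windows printed. Matches are in capitals. Tnfrsf9 has a pair of annotated starts, and both are given.
Tnfsf14, chr17:57194132-57194431, minus strand: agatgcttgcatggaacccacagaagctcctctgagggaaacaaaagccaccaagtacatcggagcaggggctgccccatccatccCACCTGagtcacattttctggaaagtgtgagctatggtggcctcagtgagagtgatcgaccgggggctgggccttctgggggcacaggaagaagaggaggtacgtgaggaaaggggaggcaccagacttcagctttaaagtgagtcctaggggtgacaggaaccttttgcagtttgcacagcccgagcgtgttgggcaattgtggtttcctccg
Tnfsf10, chr3:27316827-27317126, plus strand: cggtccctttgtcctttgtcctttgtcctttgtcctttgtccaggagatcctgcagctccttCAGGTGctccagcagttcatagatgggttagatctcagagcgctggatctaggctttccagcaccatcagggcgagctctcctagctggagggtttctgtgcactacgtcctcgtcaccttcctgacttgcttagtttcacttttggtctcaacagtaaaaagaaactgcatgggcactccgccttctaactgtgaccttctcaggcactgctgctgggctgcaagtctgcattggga
Tnfrsf9, chr4:150919905-150920204, plus strand: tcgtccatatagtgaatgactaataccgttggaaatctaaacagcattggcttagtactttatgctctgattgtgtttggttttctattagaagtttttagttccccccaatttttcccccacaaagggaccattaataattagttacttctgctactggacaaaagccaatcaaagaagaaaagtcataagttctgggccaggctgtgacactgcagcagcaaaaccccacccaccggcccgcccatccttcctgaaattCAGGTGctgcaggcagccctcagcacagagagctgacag
Tnfrsf9, chr4:150927749-150928048, plus strand: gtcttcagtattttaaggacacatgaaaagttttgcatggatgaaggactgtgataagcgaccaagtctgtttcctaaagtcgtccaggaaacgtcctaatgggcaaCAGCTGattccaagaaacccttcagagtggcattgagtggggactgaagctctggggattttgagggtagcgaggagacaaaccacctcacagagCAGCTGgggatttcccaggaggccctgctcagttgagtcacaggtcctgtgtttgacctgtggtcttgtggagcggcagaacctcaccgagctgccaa

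Tnfsf14 has its match at position 87 of the window and Tnfsf10 at position 63, counted from 1 at the 5' end. The first window of Tnfrsf9 has 1 match and the second has 2. Matches were found in 12 of the 25 windows of the members (48.0%) and in 32.9% of all 32851 windows. By gene they were in all 3 called members and in 7 of the 18 other members that have a window, so a match was also common among members that did not pass. A match describes letters only, and binding was not measured.

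A pair of further receptors lay near the threshold. Tnfrsf25, a death-domain receptor of lymphocytes, read 88.0, 77.8 and 64.8 in wild-type cells and 106, 117 and 107 in E2A-deficient cells (SE 0.111 around a log2 change of 0.52, limma adjusted p = 0.0542). Tnfrsf18, which encodes the costimulator GITR of regulatory T cells and innate lymphoid cells, read 137, 131 and 105 against 192, 188 and 159 (0.53, SE 0.117, limma adjusted p = 0.0601). In both genes the groups were separate, with log2 changes as large as that of Tnfsf10 but a wider spread, with wild-type replicate 3 the lowest array in each. Each passed in 5 of its alternatives, out of 17 for Tnfrsf25 and 18 for Tnfrsf18. Leaving out wild-type replicate 1 was one of those for Tnfrsf25 (0.62, limma adjusted p = 0.0294, in a range of 0.00663 to 0.401), and the adjusted p of Tnfrsf18 ranged from 0.0234 to 0.467.

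**Figure D3:**
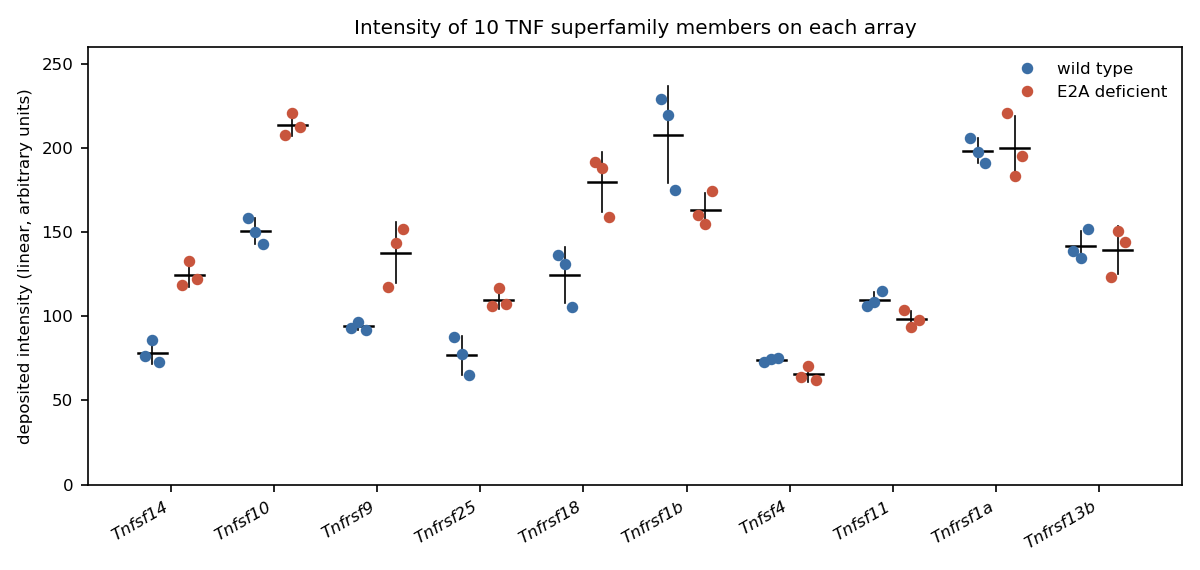
Deposited intensity of the 10 members described singly, on each array, with the mean as a bar and the SD as a line (n = 3 per group). The groups are separate in the first 8 genes, higher in E2A-deficient cells in 5 and lower in 3, and overlap in Tnfrsf1a and Tnfrsf13b.

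Values of 3 members were lower in E2A-deficient cells without passing. Tnfrsf1b encodes the TNF receptor without a death domain. It read 229, 220 and 175 in wild-type cells and 160, 155 and 174 in E2A-deficient cells, so that the groups were separate only by the narrow gap between 175 and 174 (log2 change -0.34, SE 0.108, limma adjusted p = 0.164). Tnfrsf1b did pass once wild-type replicate 3 was left out (-0.46, limma adjusted p = 0.0384) or Xist was a covariate (-0.40, 0.0335), in a range up to 0.424. Its second probe set gave 0.02 and overlapping groups. The ligand of OX40, Tnfsf4, was dim, with 72.7, 74.7 and 75.1 against 63.9, 70.5 and 61.9 (-0.18, limma adjusted p = 0.232). Tnfsf11, which encodes RANK ligand, read 106, 109 and 115 against 104, 93.5 and 97.6 (-0.16, limma adjusted p = 0.287). A second, dimmer probe set of Tnfsf11 gave -0.04 with overlapping groups, and the mean of both gave -0.10 (limma adjusted p = 0.474).

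The other TNF receptor, Tnfrsf1a, carries a death domain and was among the members brighter than the upper quartile of the arrays. Its values were 206, 198 and 191 against 221, 184 and 195, a log2 change of 0.01 with a 95% interval from -0.18 to 0.20. Tnfrsf13b, a receptor for BAFF and APRIL known from B cells, read 139, 135 and 152 against 124, 151 and 144 (-0.03, 95% interval -0.24 to 0.18). Both intervals reach less far than the change of Tnfsf14. The remaining 17 members had log2 changes from -0.06 to 0.13, and 8 of them lay below 78.4, the median of all probe sets, on all 6 arrays. At such levels the lower bound of the intensities can hide a change, so a small value there does not show that the gene was stable. Among the 17 only Tnfrsf19 had separate groups, with 66.3, 65.9 and 70.2 against 70.3, 73.3 and 77.8 (0.13, limma adjusted p = 0.414). They were apart only by the narrow gap between 70.24 and 70.28. The other probe sets of Tnfrsf19 gave -0.03 and 0.07, both with overlapping groups.

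Set beside their partners, the called ligands and receptor had no called counterpart. The LIGHT receptor Tnfrsf14 gave 105, 85.8 and 99.4 in wild-type and 98.3, 94.1 and 90.5 in E2A-deficient cells (log2 change -0.03, 95% interval -0.23 to 0.17), and the other LIGHT receptor, Ltbr, changed by 0.06. Tnfrsf10b, the death receptor for TRAIL, changed by 0.06, and its decoy receptors Tnfrsf22 and Tnfrsf23 by 0.01 and 0.06. Tnfsf9, the ligand of 4-1BB, read 79.8, 70.4 and 83.4 against 88.0, 89.7 and 75.4 (0.11, 95% interval -0.10 to 0.33). The OX40 receptor Tnfrsf4 changed by 0.10 while its ligand Tnfsf4 was at -0.18. The receptor for RANK ligand, Tnfrsf11a, changed by 0.07 and the soluble decoy Tnfrsf11b by -0.06. Of the BAFF system, Tnfsf13b (0.06), Tnfrsf13c (0.02) and Tnfrsf17 (-0.05) had small differences, as did the CD30 pair of Tnfsf8 (0.01) and Tnfrsf8 (0.06). None of these partners passed, and the difference between a ligand's and its receptor's change was not tested. Tnfrsf10b, Tnfrsf23, Tnfrsf11b, Tnfsf13b, Tnfrsf17, Tnfrsf8 and Tnfsf4 lay below 78.4, the median of all probe sets, on all 6 arrays. Both group means were below that median for Tnfsf8 (72.7 in wild-type and 73.2 in E2A-deficient cells) and Tnfrsf11a (70.0 and 73.5) too. At such levels a change can be hidden, so these values do not show that the partners were stable. Tnfrsf12a (-0.05), the receptor for TWEAK, and the death-domain receptor Tnfrsf21 (-0.03) completed the receptors, and Tnfsf13os gave -0.01.

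The probe sets that name several genes of the family gave no call. The one shared by Tnfrsf22 and Tnfrsf23 read 81.4, 84.6 and 96.0 in wild-type and 117, 94.4 and 94.0 in E2A-deficient cells (log2 change 0.21, limma adjusted p = 0.480 per probe set). A probe set that reads Tnfsf12 gave 0.08, and one that reads Tnfsf12 and Tnfsf13 together gave 0.05.

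Several members lie side by side in the genome, and the values of neighbours were alike in some cases and not in others. Tnfrsf4 and Tnfrsf18 are adjacent among coding genes on chromosome 4 and gave 0.10 and 0.53. Tnfsf9, Cd70 and Tnfsf14 follow each other on chromosome 17 and gave 0.11, 0.11 and 0.66, so that the first pair was alike and Tnfsf14 was not. Tnfrsf22 and Tnfrsf23 are adjacent too and gave 0.01 and 0.06. Tnfsf4 and Fasl, with 1 coding gene between them, were both lower, at -0.18 and -1.02, although Tnfsf4 did not pass. Tnfrsf8 and Tnfrsf1b are adjacent as well, with 0.06 and -0.34. Tnfrsf9, Tnfrsf25 and Tnfrsf18, the receptors with the largest rises in value, are on chromosome 4 with 5 other members that have a window there, an arrangement noticed after the values were seen.

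Genes of the superfamily with other symbols were 7 ligands and 8 receptors. Among these ligands 1 fell and 0 rose (limma), with 2 of the higher ones at an unadjusted p under 0.05 and passing with an intensity trend and robust variances. Over all genes 1.06% fell, 2.40% rose and 15.7% had an unadjusted p under 0.05. Fasl, which encodes the death ligand of the receptor Fas, read 113, 118 and 131 in wild-type cells and 57.4, 60.2 and 58.7 in E2A-deficient cells, or -1.02 on the log2 scale (SE 0.0692, limma adjusted p = 6.77e-04). Of the death ligands Fasl and Tnfsf10, the first thus fell and the second rose. The second probe set of Fasl, between 56.2 and 68.0 on all arrays, gave 0.02. With the mean of both the change was -0.50 (limma adjusted p = 0.00298). The lymphotoxin genes Ltb and Lta, named here after their values were seen, did not pass, although their groups were separate. Ltb read 156, 132 and 108 against 168, 206 and 191 (0.52, limma adjusted p = 0.105), and leaving out wild-type replicate 1 brought it past the threshold (0.65, limma adjusted p = 0.0482, in a range of 0.0426 to 0.523). Lta read 72.0, 73.1 and 66.8 against 82.4, 81.5 and 88.4 (0.25, limma adjusted p = 0.0995).

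Of the 8 receptors with other symbols, limma called 0 both in its plain form and with an intensity trend, and 0 reached an unadjusted p under 0.05. With 3.46% of all genes called and 15.7% at such a p, 0 in a list this short says little. Relt, an orphan receptor, had the smallest p, with 213, 196 and 229 against 221, 267 and 212 (log2 change 0.13). Cd40, the receptor for CD40 ligand, followed at -0.06. Over the 8 genes the log2 changes ran from -0.06 to 0.13, with a median of 0.0014 beside 0.015 over all genes.

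Downstream of the receptors, 14 of 16 listed adaptor and death-signalling genes were measured, and 0 passed by limma, with 1 at an unadjusted p under 0.05 and 0 passing with an intensity trend and robust variances. That 1 was Ripk3, the kinase of necroptosis, with 497, 496 and 442 against 665, 549 and 689 (log2 change 0.40, SE 0.0994, limma adjusted p = 0.0887). Its groups were separate, and leaving out E2A-deficient replicate 2 brought it past the threshold (0.50, limma adjusted p = 0.0388, the lowest of a range up to 0.504). Birc3, which encodes a ubiquitin ligase of TNF receptor complexes, was at -0.22 with overlapping groups, at -0.09 with the mean of its probe sets and at 0.04 with probe sets of one transcript. The list's median was 0.036, and its 0 calls among 14 genes stand beside 3.46% of all genes called in either direction.

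Of 18 measured NF-kappaB genes from a list of 20, 2 fell and 16 did not pass, and the median was 0.049. The 2 that fell stand beside 1.06% of all genes that fell. Nfkbie, which encodes the inhibitor I-kappaB epsilon, read 235, 225 and 171 in wild-type cells and 106, 87.7 and 108 in E2A-deficient cells (log2 change -1.05, SE 0.137, limma adjusted p = 0.00839). Its second probe set fell too, by 0.49 on the log2 scale (limma adjusted p = 0.0224 per probe set). Tnfaip3, which encodes the ubiquitin-editing enzyme A20, read 143, 148 and 179 against 97.2, 89.3 and 117 (-0.63, SE 0.122, limma adjusted p = 0.0389). The call of Tnfaip3 was lost when any wild-type array was left out (limma adjusted p = 0.0557, 0.0856 and 0.0897 for replicates 1, 2 and 3) or E2A-deficient replicate 1 (0.133) or 2 (0.107), and over all alternatives the adjusted p ran from 0.00655 to 0.365. Its second probe set, at 62.9 to 67.0, gave -0.01, and with the mean of both the change was -0.32 (0.0522). Other inhibitors on the list did not pass, with Nfkbib at 0.17 and separate groups, Nfkbia at 0.08 and Cyld at -0.14. An unadjusted limma p under 0.05 was reached by 5 of the 18 genes, 3 higher and 2 lower, beside 15.7% of all genes. The higher ones were Nfkbib, Relb (0.22) and Tab2 (0.17), each with separate groups and none passing. Once the beta-actin ratio was a covariate, neither Nfkbie (limma adjusted p = 0.0753) nor Tnfaip3 (0.365) passed, and with Xist as a covariate Tnfaip3 (0.0525) did not.

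**Figure D4:**
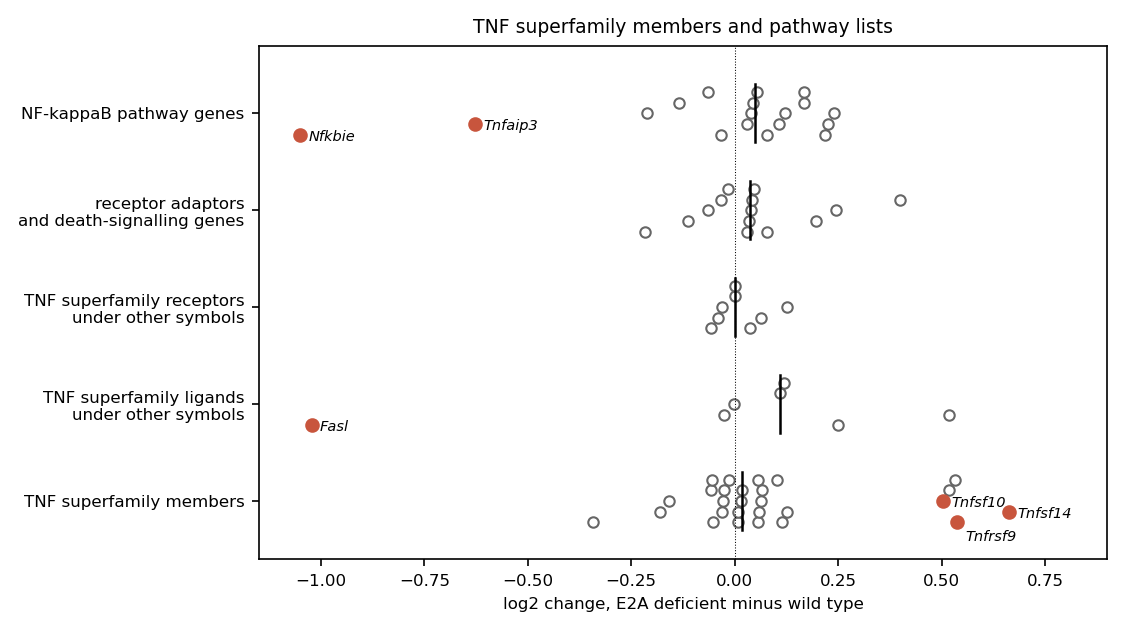
Log2 change (E2A deficient minus wild type) of the 27 members and of the genes of 4 further lists, 1 point per gene, with each list's median as a black bar; vertical offsets only separate points. Filled points passed at a limma adjusted p under 0.05. The 3 filled members lie above 0 and the filled genes of the other lists, Fasl, Nfkbie and Tnfaip3, lie below it.

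Markers of the sorted stage and of other cells were read on the same arrays. Kit (0.26), Cd44 (0.04) and Il2ra (0.13), which define DN2 cells, did not pass and were above the upper quartile in at least 1 group. Thy1 (-1.32) and Cd3e (-1.60) fell. The other DN2 markers, Bcl11b (-0.42, with separate groups) and Ptcra (-0.14), were lower without passing. Over the 7 DN2 markers the sums were 3283 to 3876 in wild type and 2675 to 3191 in E2A-deficient cells. Among markers of innate lymphoid cells 3 of 4 measured genes rose, Id2 (1.44), Zbtb16 (1.40) and Rora (2.16), while Il7r did not pass, with 592, 416 and 601 against 361, 365 and 518 (-0.37). The summed level of the 4 was 915 to 1156 in wild type and 1742 to 2150 in E2A-deficient cells. Of the 4 markers of regulatory T cells Ikzf2 rose (1.05), and the defining gene Foxp3 stayed between 63.2 and 72.8. Ctla4 (0.01) and Ikzf4 (-0.04) did not pass. The 3 measured NK-cell markers had log2 changes from -0.08 to 0.07, and their sums were 215 to 232 in wild type and 213 to 229 in E2A-deficient cells. Of 4 measured markers of later thymocytes Cd5 fell (-0.70, limma adjusted p = 0.0171), with sums of 339 to 378 against 309 to 314. Of 5 myeloid markers Lyz2 fell (-0.50, limma adjusted p = 0.0151) and Cd68 was at 0.18 with separate groups. Mpo (0.19), Csf1r (-0.07) and Itgam (-0.06) did not pass. The sums were 1153 to 1393 against 1269 to 1506. Most of each sum was Mpo alone, with 1030, 829 and 861 against 1202, 967 and 938, so the sums mainly follow that gene. Of 7 thymic epithelial markers Krt8 was at 0.46 with separate groups and did not pass, and the sums were 559 to 581 against 592 to 631. No measured marker of B cells, dendritic cells, mast cells, mesenchymal and endothelial cells or erythroid cells passed. Groups were separate there in the B-cell marker Ms4a1 (0.11) and the erythroid marker Klf1 (0.30). Klf1 read 84.4, 82.6 and 77.6 against 85.7, 84.9 and 141. The rise of the innate lymphoid markers moved with that of Tnfsf14, Tnfsf10 and Tnfrsf9, and its part in it was not tested, nor was that of the other markers. In bulk samples of this kind a change in the share of cells with a transcript and a change in RNA per cell cannot be told apart.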

How the data were processed

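Intensities of 6 arrays of sorted DN2 cells were analysed, 3 wild type and 3 E2A deficient, grouped by the labels' genotype. The authors deposited 1 intensity per probe set and array, on a linear scale. The submitters' processing notes name RMA, a method of background correction, quantile normalization and probe summary. Its version, any further scaling and any filter are not given in the sources used here. The label protocol, per the labels, repeated the in vitro transcription, which favours 3' ends. Precision is limited by the number of arrays.

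After leaving out 64 control probe sets, log2(intensity + 1) of 45037 probe sets was analysed without further normalization or filter. The array annotation named 1 gene for 34945 of them. Entrez identifiers of all 27 members were found in RefSeq. Differences are E2A deficient minus wild type, from two-sided moderated tests in limma 3.58.1 under R 4.3.3. P-values were adjusted by Benjamini-Hochberg over all 18193 genes, with a threshold of 0.05. A second fit ran per probe set. Folds are on the log2(intensity + 1) scale and understate changes of dim genes. The steps were tested on simulated data of 18193 genes with 200 changed. Calls were made for 60.7% of changes of 0.5 on the log2 scale, 93.1% of changes of 1 and 99.7% of changes of 2. Of the calls 4.47% were false. The simulated noise was independent between genes and arrays, with no difference in RNA length or sex. These shares therefore need not hold for the real arrays. Plots were made in Python 3.11.15 with matplotlib 3.10.9.

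The members and lists were chosen with earlier results of these data known. Members were described singly if they passed, had an unadjusted p under 0.05, had another probe set that passed, or lay above the upper quartile in a group. Of each other list, genes that passed were named, or else the 2 with the smallest p. List genes not measured were not analysed here. Alternatives were a replicate block, array weights, quantile normalization, median centring, no pseudocount or 16, an intensity trend with robust variances, genes brighter than the median, probe sets of one transcript, the mean of probe sets, the beta-actin ratio or Xist as a covariate, and leaving out each array.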

Additional observations from a re-analysis of the deposited data

How the results depend on the processing

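Tnfsf14 and Tnfsf10 kept their direction in 18 of 18 alternatives and passed in 17, the exception being the beta-actin ratio as a covariate. Tnfrsf9 kept its direction in 18 and lost its call in 9. With that covariate 123 of all genes passed, 0 members, 0 genes of the signalling lists and 0 member probe sets. Of the superfamily genes with other symbols only Fasl passed with it (limma adjusted p = 0.0197). Fasl kept its call in 17 of 17 alternatives. An intensity trend with robust variances and array weights each called 5 members, adding Tnfrsf18 and Tnfrsf25. Over all genes the trend called 753 and array weights 623, against 630 in the main fit. The trend called 3 superfamily genes with other symbols (Fasl, Ltb and Lta). Among only genes brighter than the median 698 passed, with 4 of the 12 members tested, and Fasl was too dim to be tested. The matching fit per probe set called 5 member probe sets. The mean of probe sets and Xist as a covariate each left 1 call in the signalling lists, Nfkbie. With 1 array left out the calls over all genes numbered 320 to 533, members 2 to 3, genes with other symbols 1 to 2, genes of the signalling lists 1 to 2 and member probe sets 2 to 3. Quantile normalization put 360 of 617 calls higher, against 437 of 630.

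Replicate numbers are shared between the groups, and deviations from the group means of same-numbered arrays correlated at 0.0168, 0.0166 and -0.0417. Correlations this low over all genes cannot show whether same-numbered arrays were handled together, and the labels do not say. With the replicate number as a block 459 genes passed, with 3 members, Tnfsf14, Tnfsf10 and Tnfrsf18, while Tnfrsf9 had a limma adjusted p of 0.0552. No wild-type array correlated best with the E2A-deficient array of its own number. On every array 9 of the 27 members lay below the median of all probe sets, beside 5807 of all 18193 genes, and small changes are hard to measure there.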
